A study of Mus musculus with 8 samples.

Results

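The Kdm3 demethylase family of the mouse comprises Kdm3a (also called Jmjd1a), Kdm3b (also called Jmjd1b) and Jmjd1c, and its RNA was followed in embryonic stem (ES) cells that lacked Kdm3a, Kdm3b or both. The members were all probe sets whose single gene symbol in the platform's gene table was one of these 3 names, which gave 6 of the 45101 probe sets on the array and 3 of the 18194 genes with a single symbol. Kdm3a had 1 probe set (1426810_at), Kdm3b had 2 (1428320_at and 1458417_at) and Jmjd1c had 3 (1426900_at, 1439998_at and 1448049_at). A probe set was called flat when its 8 values spanned less than 0.01 on the log2 scale, and measured otherwise. The second Kdm3b probe set, 1458417_at, was flat at 7.58, and so were Jmjd1c 1439998_at at 6.54 and Jmjd1c 1448049_at at 7.16. The table therefore holds no measured difference for these 3, and each gene is described by its 1 measured probe set.

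RNA from 8 cultures was hybridised to 8 Affymetrix arrays, 2 biological replicates in each of 4 groups. Jmjd1a-KO cells (genotype Jmjd1adelta/delta; Jmjd1b+/+) are labelled as a Jmjd1a-deficient line. Jmjd1b-KO cells (Jmjd1a+/+; Jmjd1bdelta/delta) are labelled as coming from deficient mice, whereas the design text describes 2 deficient lines made in culture from targeted ES cells by an adenovirus carrying Cre recombinase. Double KO cells (Jmjd1adelta/delta; Jmjd1bdelta/delta) carried a conditional Jmjd1b allele in the Jmjd1a-deficient background, which was deleted through MerCreMer, a Cre recombinase switched on by a ligand. The design text names 2 conditional lines, both built on 1 Jmjd1a-deficient line. WT cells (Jmjd1a+/+; Jmjd1b+/+) came from WT mice. The same treatment text, OHT at 800 nM, is attached to all 8 samples, and all were grown with leukemia-inhibiting factor. Which line gave which replicate, whether a group's replicates came from separate lines and whether the probe sets lie in the deleted part of each gene is not stated in these sources. The p-values therefore measure only the spread between these cultures.

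Enzymes of this family carry a JmjC domain, which uses iron and 2-oxoglutarate to take methyl groups off proteins. Kdm3a and Kdm3b remove mono- and dimethyl marks from lysine 9 of histone H3 (H3K9), a modification associated with silent genes and written by the G9a/GLP complex. In mice Kdm3a is known for its part in sperm formation, in sex determination through Sry and in energy metabolism, and it is a target of hypoxia signalling. Jmjd1c is the largest and the least settled member: it shares the JmjC domain, and its activity on H3K9 is disputed.

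The RefSeq promoter windows (build GRCm38.p6) of Kdm3a (chr6:71632868-71633167, minus strand) and Jmjd1c (chr10:67126838-67127137, plus strand) are printed because RNA of these genes can start there. Each is 300 bases long and runs 5′ to 3′ on the gene's own strand from upstream of a start to shortly after it. Capitals mark GGGCGG or its complement CCGCCC, the GC box, and CCAAT, the CCAAT box.
Kdm3a: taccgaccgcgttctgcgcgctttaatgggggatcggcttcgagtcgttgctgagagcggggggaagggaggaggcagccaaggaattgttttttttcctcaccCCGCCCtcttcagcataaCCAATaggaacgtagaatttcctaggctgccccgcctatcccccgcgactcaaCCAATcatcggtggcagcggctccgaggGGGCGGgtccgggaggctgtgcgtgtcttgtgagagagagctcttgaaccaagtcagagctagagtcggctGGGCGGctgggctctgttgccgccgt
Jmjd1c: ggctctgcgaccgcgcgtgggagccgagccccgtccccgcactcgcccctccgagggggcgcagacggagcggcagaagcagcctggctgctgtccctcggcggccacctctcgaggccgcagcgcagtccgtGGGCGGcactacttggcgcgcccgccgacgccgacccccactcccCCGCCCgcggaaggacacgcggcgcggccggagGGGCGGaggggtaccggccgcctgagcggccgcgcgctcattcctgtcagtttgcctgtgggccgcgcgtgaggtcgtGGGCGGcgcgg
The Kdm3a window held 3 GC boxes and 2 CCAAT boxes, counted on both strands, and the Jmjd1c window held 4 GC boxes and 0 CCAAT boxes. No 2 matches overlap in these windows, and 35.7% and 37.4% of the 32851 promoter windows of the table held a GC box and a CCAAT box. ACGTG, a form of the core of the hypoxia response element, was in 0 of the windows listed for either gene, against 19.6% of all windows. The form GCGTG was not counted, and both printed windows hold it. The listed windows were 3 for Kdm3a, of which the first is shown, and 2 for Jmjd1c. A TATAAA was in 0 of the listed windows, against 13.6% of all windows. The other listed Kdm3a windows held 4 and 0 GC boxes and 0 CCAAT boxes, and the other Jmjd1c window held 0 of either. Which start was used was not measured. A match is a string of letters and no occupancy was measured. Kdm3b is named only.

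Several arrays stood apart from others of their group, and the values are given here because the family's results rest on so few cultures. Array medians lay between 6.80 and 6.81. The difference between replicates had a standard deviation over the measured probe sets with a single symbol of 0.334 in Jmjd1a-KO, 0.119 in Jmjd1b-KO, 0.283 in double KO and 0.157 in WT cells. The 4 measured probe sets of the Y-linked genes Eif2s3y, Kdm5d and Uty, looked at because 2 of these genes are JmjC demethylases and their replicates differed, had medians of 8.31 and 4.52 in the 2 Jmjd1a-KO arrays and of 8.81 and 4.48 in the 2 double KO arrays. The corresponding medians were 8.46 and 8.41 in Jmjd1b-KO and 7.23 and 7.33 in WT arrays. Replicate 2 of Jmjd1a-KO and replicate 2 of double KO were thus low and their replicates 1 were not, and the family's changes, the lists and the neighbouring genes below are also given without replicate 2 of both groups, which leaves 1 array in each and takes its spread from the other groups. Markers of ES cells were measured for 12 of 12 genes (18 probe sets), and their mean log2 level was 10.74 to 10.92 in Jmjd1a-KO, 10.54 to 10.59 in Jmjd1b-KO, 9.98 and 10.83 in the double KO replicates 1 and 2, and 10.50 to 10.52 in WT. Fibroblast markers (8 of 10 genes measured, Dcn and Lum flat) ranged over 7.50 to 7.66, 6.48 to 6.62, 7.44 to 7.67 and 8.55 to 8.71 in the same groups, and trophoblast markers (3 of 6 measured, Cdx2, Elf5 and Gata3 flat) over 7.47 to 7.67, 8.29 to 8.33, 8.64 to 8.76 and 7.22 to 7.39. Endoderm markers (2 of 5 measured, Afp, Foxa2 and Gata4 flat) ranged over 6.40 to 6.60, 6.20 to 6.26, 6.91 to 7.17 and 6.25 to 6.28, and neuroectoderm markers (4 of 4 measured) over 7.68 to 8.58, 6.82 to 6.86, 7.55 to 7.99 and 8.63 to 8.71. The part of these differences in the results below was not tested, and in bulk RNA fewer cells of a type cannot be told apart from less RNA per cell.

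**Figure D1:**
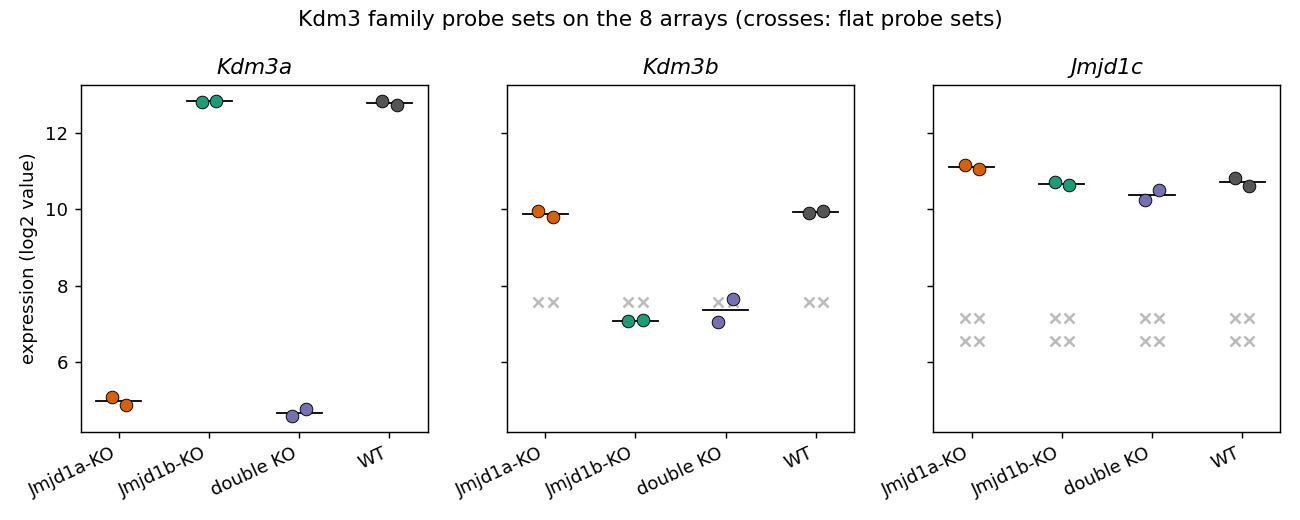
Log2 level (vertical axis) of the measured probe sets of Kdm3a, Kdm3b and Jmjd1c in the 4 groups (horizontal axis), with a dot for each array, a bar for the mean of the 2 and grey crosses for flat probe sets. Kdm3a is between 4.60 and 5.08 in the 4 arrays lacking Jmjd1a and between 12.73 and 12.83 in the other 4, Kdm3b is low in Jmjd1b-KO and double KO, and Jmjd1c spans under 1 log2 unit.

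Kdm3a RNA was far lower in cells with the Jmjd1a deletion and high in cells without it. Its log2 level was 5.08 and 4.87 in Jmjd1a-KO, 12.80 and 12.83 in Jmjd1b-KO, 4.60 and 4.77 in double KO, and 12.83 and 12.73 in WT. The 4 arrays labelled as lacking Jmjd1a lay below all others with no overlap, so the labels and the targeted gene go together in every array. The group means were 4.98 ± 0.15 in Jmjd1a-KO, 12.81 ± 0.018 in Jmjd1b-KO, 4.68 ± 0.12 in double KO and 12.78 ± 0.072 in WT (SD, n = 2 each).

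In limma's moderated test over all 34958 probe sets with a single gene symbol, with Benjamini-Hochberg adjustment, Kdm3a fell by 7.81 ± 0.10 on the log2 scale in Jmjd1a-KO against WT cells (SE, adjusted p = 0.000168), a 224-fold lower signal. This was the lowest log2 change of the 10405 measured probe sets in that comparison, where 1.85% of all probe sets passed the adjusted threshold of 0.05 (0.984% as lower) and the arrays of 64.9% of the measured ones did not overlap. Kdm3a also fell by 8.10 ± 0.10 in double KO against WT (adjusted p = 0.000121, 274-fold lower), where 9.41% of probe sets passed (4.07% as lower) and the arrays of 79% of the measured ones did not overlap. In double KO against Jmjd1b-KO cells it fell by 8.13 ± 0.10 (adjusted p = 0.000109, 280-fold lower), where 10.7% passed (5.21% as lower). On the 4 low arrays between 0 and 6 of the 45101 probe sets had a lower value than Kdm3a. Kdm3a thus lay at the floor of the table there and is not shown to be above background, so these folds depend on that floor and describe the array signal, not a count of transcripts.

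In Jmjd1b-KO cells Kdm3a stayed within the range of WT. Its log2 change in Jmjd1b-KO against WT was 0.03 ± 0.10 (adjusted p = 0.996, 95% interval -0.25 to 0.31), with overlapping arrays, in a comparison where 1.98% of probe sets passed and 77.7% of the measured ones did not overlap. Between the groups that both lack Jmjd1a, Kdm3a was at 4.60 and 4.77 in double KO against 5.08 and 4.87 in Jmjd1a-KO. That change, -0.29 ± 0.10, did not pass (adjusted p = 0.231), although the arrays did not overlap, which held for 62.5% of measured probe sets in this comparison. It was -0.48 between the replicates 1 and -0.10 between the replicates 2. In order of level, double KO and Jmjd1a-KO stood lowest and WT and Jmjd1b-KO highest, and neither of these adjacent pairs passed the test.

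Kdm3b RNA was lower in both groups with the Jmjd1b deletion. Its log2 level in the measured probe set was 9.95 and 9.81 in Jmjd1a-KO, 7.07 and 7.10 in Jmjd1b-KO, 7.06 and 7.66 in double KO, and 9.91 and 9.96 in WT. The 4 arrays lacking Jmjd1b were below the other 4 without overlap. On those low arrays, 58.4% to 69.6% of the probe sets had a lower value than Kdm3b. Remaining RNA and probe background cannot be told apart there, so the folds below describe the array signal. Means were 9.88 ± 0.10 in Jmjd1a-KO, 7.08 ± 0.019 in Jmjd1b-KO, 7.36 ± 0.43 in double KO and 9.93 ± 0.034 in WT (SD, n = 2 each).

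Kdm3b fell by 2.85 ± 0.22 on the log2 scale in Jmjd1b-KO against WT cells (SE, limma adjusted p = 0.0149), or 7.22-fold, where 0.898% of all probe sets passed as lower. It was the 15th lowest change of the 10405 measured probe sets. It fell by 2.57 ± 0.22 in double KO against WT (adjusted p = 0.0104, 5.95-fold, the 55th lowest change). In double KO against Jmjd1a-KO, which share the Jmjd1a deletion, it fell by 2.52 ± 0.22 (adjusted p = 0.0174, 5.72-fold), where 3.34% of probe sets passed and 1.36% passed as lower. These calls rest on few arrays in the fit of the whole table. The fall against WT was called in 4 of 8 fits that left out 1 array for Jmjd1b-KO and in 6 of 8 for double KO, and the fall against Jmjd1a-KO in 2 of 8, with log2 changes of -2.88 to -2.83, -2.87 to -2.27 and -2.82 to -2.21. The first was lost without either WT or either Jmjd1b-KO array (adjusted p = 0.0822 to 0.0894), the second without either WT array (0.0673 and 0.0679), and the third was kept only without either double KO array. In fits of the measured probe sets alone, each of the 3 was called in 8 of 8.

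The 2 double KO arrays differed for Kdm3b. Relative to the Jmjd1b-KO mean, replicate 1 was at -0.02 and replicate 2 at 0.58, a gap of 0.60 that was exceeded by only 3.60% of the measured probe sets in double KO (median gap 0.118). Both were far under the WT mean, at -2.87 and -2.27 relative to it. Double KO against Jmjd1b-KO gave a log2 change of 0.28 ± 0.22 (adjusted p = 0.511, 95% interval -0.32 to 0.87), with overlapping arrays where 82.8% of measured probe sets did not overlap. Without double KO replicate 2 that change was -0.02. When replicate 1 was left out of both double KO and Jmjd1a-KO, which leaves 1 array in each and takes its spread from the others, it was 0.58 (adjusted p = 0.0341). Kdm3b did not differ detectably between Jmjd1a-KO and WT cells either, at -0.06 ± 0.22 (adjusted p = 1, 95% interval -0.65 to 0.54), and its arrays overlapped. By level, Jmjd1b-KO and double KO were lowest and Jmjd1a-KO and WT highest, and neither neighbouring pair differed beyond its spread.

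**Figure D2:**
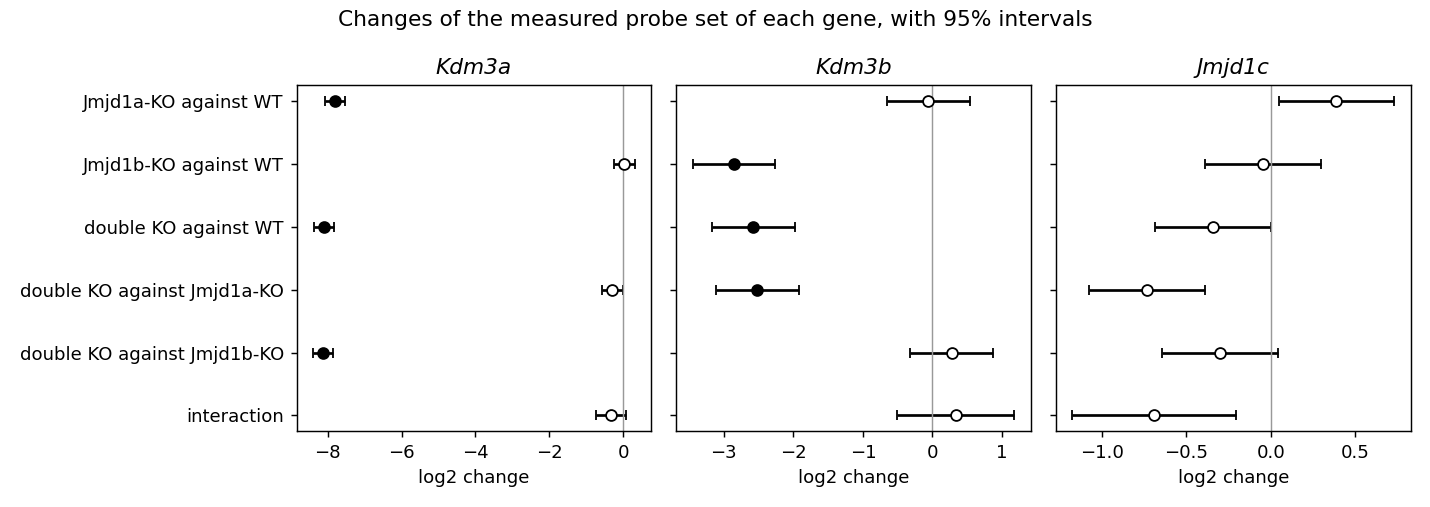
Log2 change (horizontal axis) of the 3 measured probe sets in the 5 comparisons and in the interaction, with 95% confidence intervals. Filled points passed an adjusted p under 0.05 in the fit of all 34958 probe sets, which is the case for the 3 comparisons of Kdm3a and the 3 of Kdm3b that differ in the gene's own deletion, and open points did not.

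Jmjd1c was deleted in none of the groups and its measured range was small. The log2 level of its measured probe set was 11.15 and 11.05 in Jmjd1a-KO, 10.70 and 10.64 in Jmjd1b-KO, 10.24 and 10.49 in double KO, and 10.82 and 10.60 in WT. Both Jmjd1a-KO arrays were above all others and both double KO arrays were below all others, while Jmjd1b-KO lay inside the range of WT. Means were 11.10 ± 0.071 in Jmjd1a-KO, 10.67 ± 0.043 in Jmjd1b-KO, 10.37 ± 0.18 in double KO and 10.71 ± 0.16 in WT (SD, n = 2 each).

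None of the 6 Jmjd1c contrasts passed in the fit of the whole table, in which the flat probe sets pull the common variance toward 0, although 4 of the 6 had an unadjusted p under 0.05, as had 32.6% to 55.5% of all measured probe sets in each contrast. Against WT the log2 change was 0.39 ± 0.12 in Jmjd1a-KO (adjusted p = 0.265), -0.04 ± 0.12 in Jmjd1b-KO (adjusted p = 0.971) and -0.34 ± 0.12 in double KO (adjusted p = 0.188). A value above every WT array was found for 34% of measured probe sets in Jmjd1a-KO, and one below every WT array for 36.3% in double KO, so the separation of these arrays is common in the data. Against Jmjd1b-KO, double KO gave -0.30 ± 0.12 (adjusted p = 0.233).

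The largest change of Jmjd1c was between the 2 groups that lack Jmjd1a. In double KO against Jmjd1a-KO cells it was -0.73 ± 0.12 (1.66-fold lower, 95% interval -1.07 to -0.39, adjusted p = 0.0762). It passed in the fit of the 10405 measured probe sets alone (adjusted p = 0.00820), where 29.2% of probe sets passed and 10.1% had a larger change, and it did so in 8 of 8 fits of that kind without 1 array (-0.86 to -0.61). Between the replicates 1 it was -0.91 and between the replicates 2, the arrays with low Y-linked signal, it was -0.56.

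Jmjd1c thus changed by 0.39 in Jmjd1a-KO against WT cells and by -0.30 in double KO against Jmjd1b-KO cells. The groups also differ in the origin of their lines, and neither of these changes passed in either fit. The interaction, which takes the first of these from the second, was -0.69 ± 0.18 (adjusted p = 0.159 over the whole table, where 3.1% passed, and 0.0294 over measured probe sets alone, where 25.8% passed). It was called in 3 of 8 fits of measured probe sets without 1 array, with values of -0.81 to -0.56. Without replicate 2 of Jmjd1a-KO and double KO, Jmjd1c changed by 0.44 in Jmjd1a-KO and -0.47 in double KO against WT. Its change in double KO was then -0.91 against Jmjd1a-KO and -0.43 against Jmjd1b-KO, and its interaction was -0.86. Of the 10405 measured probe sets, 6.71% had the same crossing of arrays without overlap and 9.01% had the opposite crossing. The same term for Kdm3a was -0.32 ± 0.14 (adjusted p = 0.342) and for Kdm3b 0.34 ± 0.31 (adjusted p = 0.629). For Kdm3b it was 0.71 when both groups lacking Jmjd1a were left with replicate 2 (adjusted p = 0.0455) and -0.037 when they were left with replicate 1. The ES marker mean was lowest in double KO replicate 1, as was Jmjd1c, and at 10.83 in double KO replicate 2 it lay within the range of Jmjd1a-KO, while Jmjd1c there was below all Jmjd1a-KO arrays. The part of these markers in the result was not tested.

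Over the 8 arrays, the genes whose pattern was most like that of each member were taken from the probe sets spanning at least 1 log2 unit, by Pearson's r. The 8 points fall into groups that the genotypes set, so r is given as a description. Kdm3a had 42 of 2781 candidate probe sets at r above 0.95 and 40 below -0.95. Its nearest were Gstp1, a glutathione transferase (r = 0.996), Prkca, a protein kinase C (0.994), Sohlh2, a germ cell transcription factor (0.993), Rian, an imprinted noncoding RNA (0.987), and Ly6e, a membrane protein (0.987). Gstp1 averaged 10.52 in Jmjd1a-KO, 12.86 in Jmjd1b-KO, 10.51 in double KO and 13.12 in WT. Rian averaged 4.99, 10.74, 5.18 and 11.70 in the same groups. Like Kdm3a, both were low in all 4 arrays lacking Jmjd1a. The most opposite were Neo1, a netrin receptor (r = -0.988), Iqgap2, a scaffold protein (-0.988), and Ugt8a, which makes galactosylceramide (-0.987). Neo1 averaged 9.52 in Jmjd1a-KO, 8.37 in Jmjd1b-KO, 9.56 in double KO and 8.46 in WT.

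For Kdm3b 2 of 2781 candidates were above 0.95 and 8 below -0.95. Its nearest genes were the Wnt receptor Fzd5 (r = 0.969), the repressor Zbtb18 (0.967), the ubiquitin ligase Trim2 (0.941), Taf1d, a subunit of an RNA polymerase I factor (0.929), and Lifr, the receptor of leukemia-inhibiting factor (0.918). Fzd5 averaged 9.45 in Jmjd1a-KO, 8.71 in Jmjd1b-KO, 8.89 in double KO and 9.68 in WT, and Lifr 10.02, 8.79, 8.88 and 9.63. Both were thus lower in the groups lacking Jmjd1b. The opposite side held Abcd4, a lysosomal transporter involved in cobalamin handling (r = -0.985), the keratin Krt19 (-0.973) and the germ cell gene Stk31 (-0.965). Krt19, an epithelial keratin, averaged 7.06 in Jmjd1a-KO, 9.05 in Jmjd1b-KO, 8.90 in double KO and 7.27 in WT.

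For Jmjd1c 4 of 2782 candidates were above 0.95 and 5 below -0.95. The nearest were the sterol enzyme Msmo1 (r = 0.976), the motor protein Myo10 (0.973), the 5-methylcytosine oxidase Tet1 (0.967), the pluripotency factor Esrrb (0.957) and the spindle protein Psrc1 (0.948). Tet1 averaged 9.96 in Jmjd1a-KO, 8.83 in Jmjd1b-KO, 8.48 in double KO and 8.97 in WT. Esrrb averaged 9.62, 8.73, 8.16 and 8.84 in its probe set 1441921_x_at. Opposite to Jmjd1c were the Ets factor Spic (r = -0.979), the ubiquitin ligase Dtx3l (-0.977) and the interferon-induced gene Oasl2 (-0.965). Oasl2 averaged 5.96 in Jmjd1a-KO, 7.06 in Jmjd1b-KO, 8.21 in double KO and 7.11 in WT, so that its groups ran in the reverse order of Jmjd1c from the lowest to the highest mean, apart from Jmjd1b-KO and WT, which were close. Over the 6 arrays without replicate 2 of Jmjd1a-KO and double KO, r of the named genes was 0.982 to 0.995 for those like Kdm3a, 0.902 to 0.991 for Kdm3b and 0.949 to 0.983 for Jmjd1c.

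**Figure D3:**
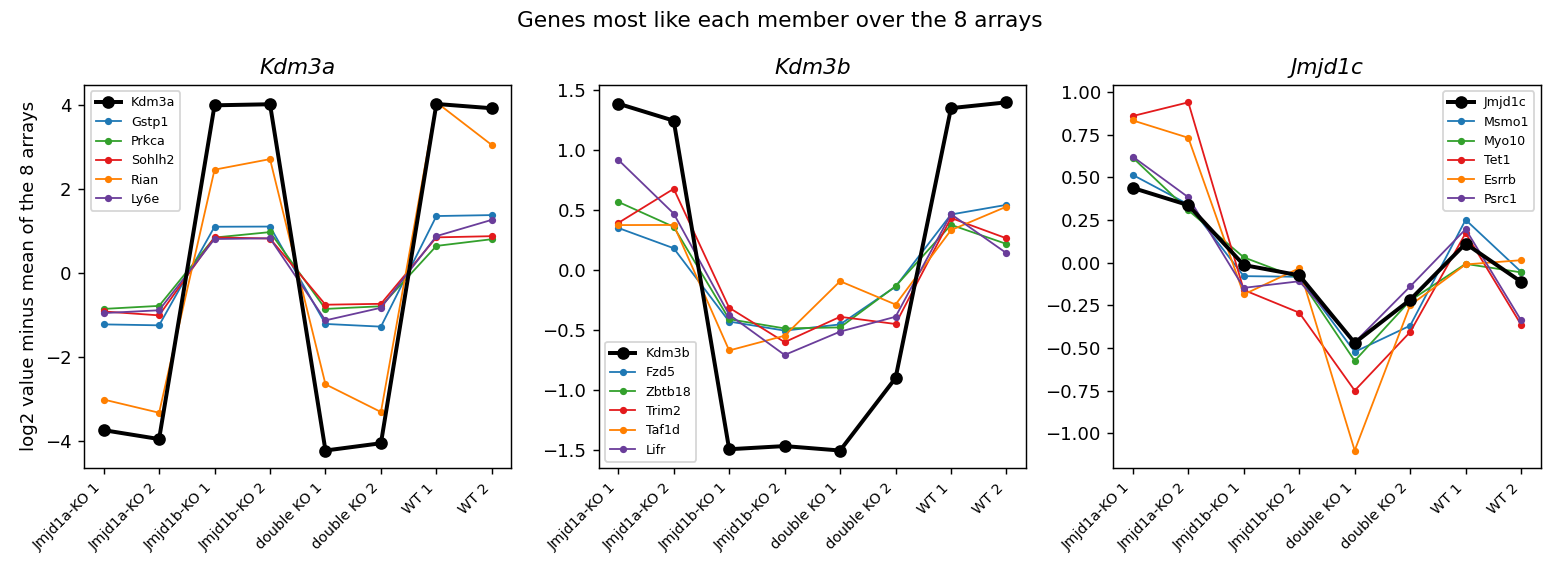
Log2 level minus the mean of the 8 arrays (vertical axis, scaled per panel) across the 8 arrays (horizontal axis) for each family member and the 5 genes most like it. The curves of Kdm3a split by Jmjd1a genotype, those of Kdm3b by Jmjd1b genotype, and those of Jmjd1c are highest in Jmjd1a-KO and lowest in double KO.

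The other demethylases were read as a list. Of 30 further JmjC and LSD1-type demethylases and relatives, 29 were on the array with 87 probe sets, of which 25 were measured, from 16 genes. Over the whole table, 0 of the 25 passed in Jmjd1a-KO against WT and 0 in Jmjd1b-KO against WT, against a background of 2.73% and 3.27% of measured probe sets. At an unadjusted p under 0.05 they were 2 and 6 of the 25, beside 32.6% and 36.6% of all measured probe sets. In double KO against WT 1 was higher and 2 were lower, in double KO against Jmjd1a-KO 0 and 1, in double KO against Jmjd1b-KO 0 and 4, and in the interaction 0 and 0. The background in these was 23.7%, 7.49%, 27.5% and 5.42%. The median log2 change of the 25 was -0.13 in Jmjd1a-KO and 0.20 in Jmjd1b-KO against WT, 0.01 in double KO against WT, 0.04 against Jmjd1a-KO and -0.35 against Jmjd1b-KO, beside medians between 0.00 and 0.04 over all measured probe sets. The fit of measured probe sets alone gave 0 higher and 1 lower in Jmjd1a-KO against WT (background 18.4%), 5 and 0 in Jmjd1b-KO against WT (24%), and 3 and 7 in double KO against WT (47.6%). It gave 2 and 2 in double KO against Jmjd1a-KO (29.2%), 2 and 12 against Jmjd1b-KO (51.2%), and 0 and 4 in the interaction (25.8%). With all 8 arrays, the list's share was under the background in these counts except double KO against Jmjd1b-KO over measured probe sets alone. This did not carry over to the fit without replicate 2 of Jmjd1a-KO and double KO, which leaves 1 array in each. In that fit, the median change of the 25 was -0.03 in Jmjd1a-KO and 0.20 in Jmjd1b-KO against WT. It was -0.08 in double KO against WT, -0.06 against Jmjd1a-KO, -0.31 against Jmjd1b-KO and -0.39 in the interaction. The medians over all measured probe sets then lay between -0.01 and 0.04.

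Jmjd6, a JmjC protein known as a lysine hydroxylase of splicing factors, was the member of that list that changed in most comparisons. In its probe set 1454109_a_at the log2 level was 9.80 and 9.54 in Jmjd1a-KO, 10.07 and 9.99 in Jmjd1b-KO, 8.75 and 8.73 in double KO, and 9.62 and 9.86 in WT. The 2 double KO arrays were below all others. It fell by 1.00 ± 0.13 in double KO against WT (adjusted p = 0.0245), by 0.93 ± 0.13 against Jmjd1a-KO (adjusted p = 0.0489) and by 1.29 ± 0.13 against Jmjd1b-KO (adjusted p = 0.0130). Its other measured probe set, 1420056_s_at, fell by 0.98 ± 0.12 in double KO against WT (adjusted p = 0.0230) and by 1.29 ± 0.12 against Jmjd1b-KO (adjusted p = 0.0115). Without replicate 2 of Jmjd1a-KO and double KO these 5 falls kept their sign and lost their call over the whole table (adjusted p = 0.0779 to 0.153), and over measured probe sets alone they were called (0.00125 to 0.00695).

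In its probe set 1435348_at, the X-linked H3K4 demethylase Kdm5c was at 7.87 and 8.05 in double KO against 7.30 and 7.40 in WT. This was a rise of 0.61 ± 0.09 (adjusted p = 0.0321). In double KO against Jmjd1b-KO, Jarid2, a partner of Polycomb repressive complex 2, fell by 0.79 ± 0.10 in 1450710_at (adjusted p = 0.0223). The JmjC gene Hspbap1 fell there by 0.42 ± 0.08 in 1441900_x_at (adjusted p = 0.0474). No other measured probe set of these genes passed in any contrast over the whole table. Without the same replicates 2, which leaves 1 double KO array, these changes were 0.52 for Kdm5c, -0.90 for Jarid2 and -0.52 for Hspbap1.

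A list of H3K9 methyltransferases also held Wiz and Zfp644, zinc finger partners of the G9a/GLP complex that are not themselves enzymes. Of its 10 genes, 9 were on the array with 25 probe sets, of which 4 were measured: 1 of Ehmt2, 1 of Suv39h2 and 2 of Zfp644. Over the whole table, 1 of these 4 passed in 1 of the 6 contrasts, double KO against Jmjd1b-KO, where 27.5% of all measured probe sets passed (2.73% to 23.7% in the others). Over measured probe sets alone, 0 were higher and 1 lower in Jmjd1a-KO against WT, 1 and 2 in Jmjd1b-KO against WT, 0 and 4 in double KO against WT, 0 and 1 against each single KO, and 1 and 1 in the interaction, beside the same 18.4% to 51.2% as above. Ehmt2 encodes G9a, which adds the marks that Kdm3a and Kdm3b remove. Its log2 level was 9.82 and 9.34 in Jmjd1a-KO, 10.62 and 10.61 in Jmjd1b-KO, 8.67 and 9.06 in double KO, and 9.53 and 9.55 in WT. It fell by 1.75 ± 0.22 in double KO against Jmjd1b-KO (adjusted p = 0.0215). Both Jmjd1b-KO arrays were above WT, with a change of 1.08 that did not pass (adjusted p = 0.117, and 0.0157 over measured probe sets alone). Without replicate 2 of Jmjd1a-KO and double KO, which leaves 1 array in each, Ehmt2 fell by 1.95 in double KO against Jmjd1b-KO. In that fit, the median change of the 4 was -0.21 in Jmjd1a-KO and -0.30 in Jmjd1b-KO against WT. It was -0.25 in double KO against WT, -0.0038 against Jmjd1a-KO, 0.093 against Jmjd1b-KO and 0.34 in the interaction. The medians over all measured probe sets then lay between -0.01 and 0.04. With all arrays, the median change of the 4 was -0.16 in Jmjd1a-KO and -0.30 in Jmjd1b-KO against WT. It was then -0.40 in double KO against WT, -0.14 against Jmjd1a-KO and 0.02 against Jmjd1b-KO.

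Of 8 genes known in the mouse as targets of Jmjd1a, all were on the array with 16 probe sets, and 2 of these were measured. Ppara, Prm1, Sry, Tnp1, Ucp1 and Zfp57 were flat in all their probe sets. The measured ones were Tcl1 and Tfcp2l1, both pluripotency-associated, and 0 passed in any of the 6 contrasts in the fit of the whole table, with 3 unadjusted p-values under 0.05. Of all measured probe sets 2.73% to 27.5% passed in these contrasts and 32.6% to 55.5% had an unadjusted p under 0.05. Without replicate 2 of Jmjd1a-KO and double KO, the median change of the 2 lay between -0.35 and 0.08 over the 6 contrasts. Tfcp2l1 gave -0.91 ± 0.14 in Jmjd1b-KO against WT (adjusted p = 0.0825, and 0.00994 over measured probe sets alone) and 0.70 in double KO against Jmjd1b-KO. With all arrays, this rise and its positive interaction passed over measured probe sets alone, where 51.2% and 25.8% of probe sets passed. The median of Tcl1 and Tfcp2l1 was 0.08 in Jmjd1b-KO against WT and -0.08 in double KO against Jmjd1b-KO. Tcl1 thus lay on the other side of 0 in both comparisons, and it did not pass in either fit.

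**Figure D4:**
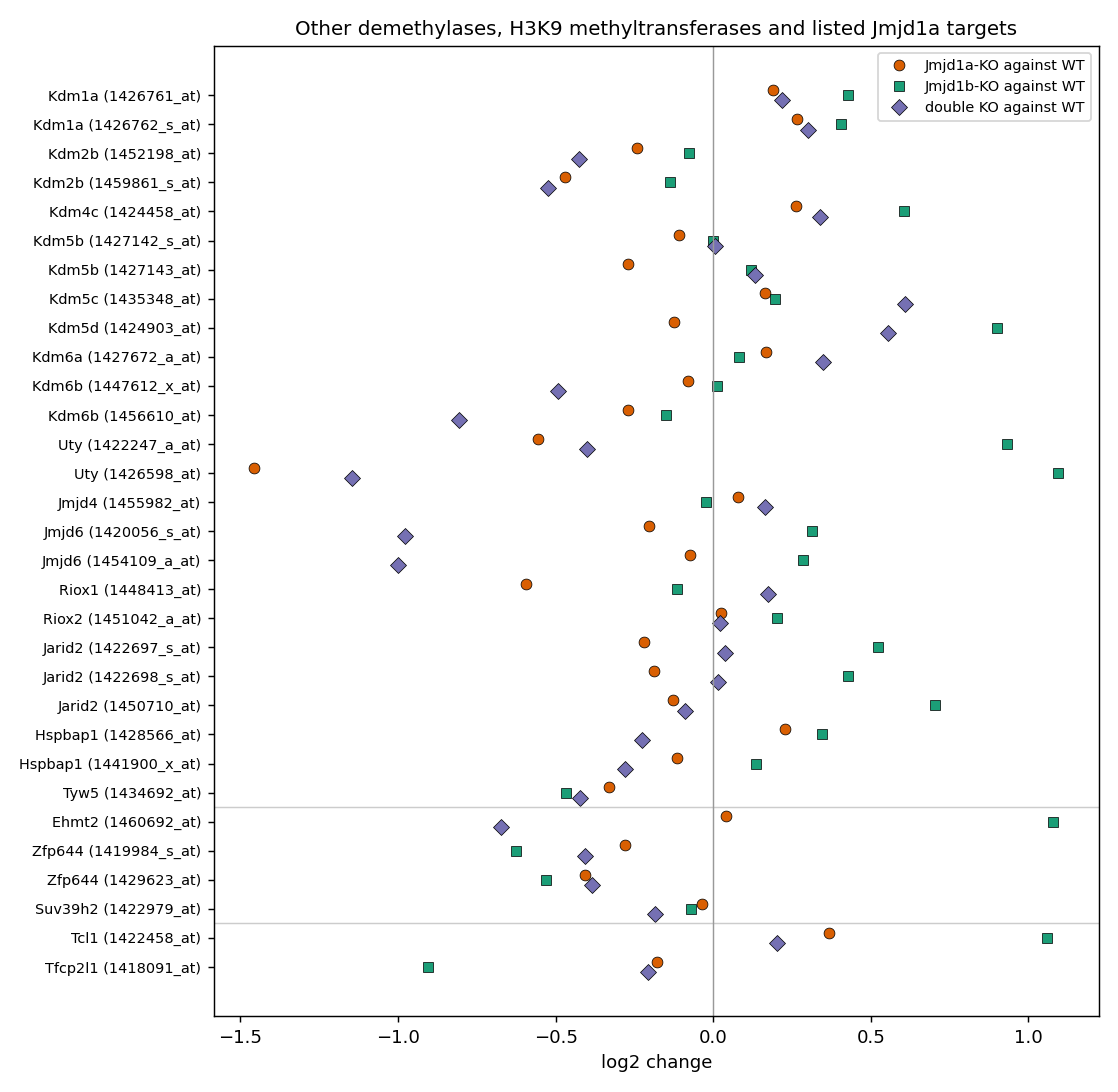
Log2 change against WT (horizontal axis) of each measured probe set of the other demethylases, the H3K9 methyltransferases and the Jmjd1a targets (rows), with a point for Jmjd1a-KO, Jmjd1b-KO and double KO. Both probe sets of Jmjd6 lie near -1 in double KO, and Ehmt2 is above 0 in Jmjd1b-KO.

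The genes next to each member were read as well, since a deletion or a selection cassette can lie beside them. Up to 3 protein-coding genes on each side in the GRCm38.p6 gene order, chosen after the members' values were seen, gave 18 neighbours, of which 11 had a measured probe set, 19 in all. Predicted genes with Gm names were skipped. Each family member lies next to a Reep gene, a family that shapes the endoplasmic reticulum: Reep1 beside Kdm3a, Reep2 beside Kdm3b and Reep3 beside Jmjd1c. Kdm3b and Jmjd1c also have an immediate early transcription factor 2 genes away, Egr1 and Egr2. Reep2 and Egr2 were flat in all their probe sets.

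Over the whole table, 0 of the 19 passed in Jmjd1a-KO against WT, 0 in Jmjd1b-KO against WT and 0 in the interaction, where 2.73%, 3.27% and 5.42% of all measured probe sets passed. At an unadjusted p under 0.05 they were 3, 4 and 5 there, beside 32.6%, 36.6% and 37.9%. In double KO, 0 were higher and 2 lower against WT (background 23.7%), 0 and 1 against Jmjd1a-KO (7.49%), and 1 and 4 against Jmjd1b-KO (27.5%). Over measured probe sets alone, 0 were higher and 1 lower in Jmjd1a-KO against WT (18.4%), 1 and 2 in Jmjd1b-KO against WT (24%) and 0 and 2 in the interaction (25.8%). In the same fit 4 were higher and 3 lower in double KO against WT (47.6%), 2 and 2 against Jmjd1a-KO (29.2%) and 6 and 6 against Jmjd1b-KO (51.2%). Beside Kdm3a, the ubiquitin ligase gene Rnf103 was at 7.74 and 7.95 in Jmjd1a-KO, 7.24 and 7.10 in Jmjd1b-KO, 8.68 and 8.25 in double KO, and 7.15 and 7.54 in WT. It rose by 1.29 ± 0.22 in double KO against Jmjd1b-KO (adjusted p = 0.0411), and its change of 1.12 against WT did not pass (adjusted p = 0.0598). Immt, which organises mitochondrial cristae, fell by 0.29 ± 0.05 in double KO against WT in its probe set 1429533_at (adjusted p = 0.0372). Beside Kdm3b, Etf1, a translation release factor, fell by 0.41 ± 0.06 in double KO against WT in its probe set 1451208_at (adjusted p = 0.0339). Without replicate 2 of Jmjd1a-KO and double KO, these 3 calls were lost over the whole table (adjusted p = 0.117 for Rnf103, 0.176 for Immt and 0.117 for Etf1), and over measured probe sets alone they held (0.00264, 0.0337 and 0.00894). The median change of the 19 without these replicates lay between -0.11 and 0.12 over the 6 contrasts. The medians over all measured probe sets then lay between -0.01 and 0.04.

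Egr1 had the widest range of the neighbours. Its log2 level was 6.40 and 6.91 in Jmjd1a-KO, 12.28 and 12.88 in Jmjd1b-KO, 9.61 and 7.86 in double KO, and 8.05 and 7.90 in WT. Both Jmjd1b-KO arrays were far above all others, and the double KO arrays lay well apart. The change of 4.61 ± 0.67 in Jmjd1b-KO against WT did not pass over the whole table (adjusted p = 0.0716) and passed over measured probe sets alone (adjusted p = 0.00698). Egr1 fell by 3.85 ± 0.67 in double KO against Jmjd1b-KO (adjusted p = 0.0438). Without replicate 2 of Jmjd1a-KO and double KO, which leaves 1 array in each, that change was -2.97.

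**Figure D5:**
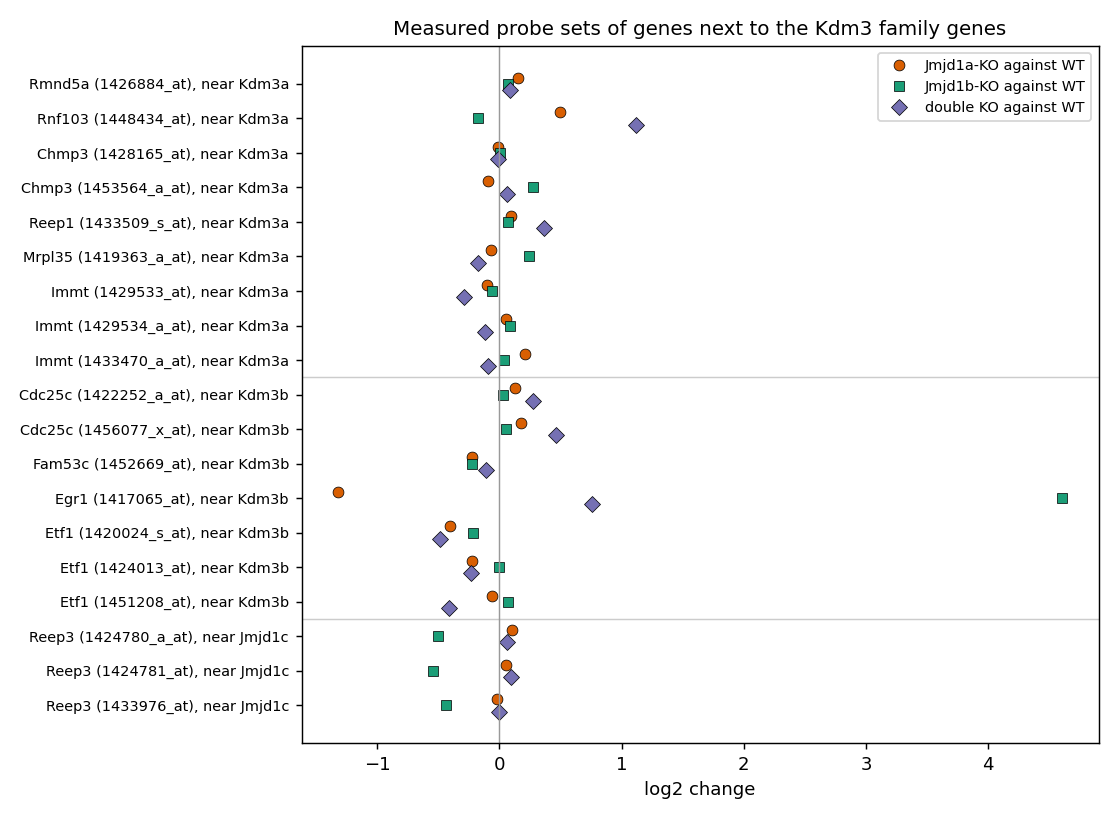
Log2 change against WT (horizontal axis) of each measured probe set of the genes that lie next to Kdm3a, Kdm3b and Jmjd1c (rows), with a point for Jmjd1a-KO, Jmjd1b-KO and double KO. Egr1, 2 genes from Kdm3b, is 4.61 above WT in Jmjd1b-KO, and most other points lie within 1 log2 unit of 0.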

How the data were processed

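The data are 1 log2 value for each of 45101 probe sets on each of 8 Affymetrix arrays, as the authors deposited them. That the deposited values are on a log2 scale was read from their range. Per the labels' protocols, RNA was labelled from 200 ng per sample. R 2.7.2 is named, per the submitters' processing notes. The sources used here do not name the background correction or the normalization. In 74.5% of probe sets the 8 values span less than 0.01. With 8 arrays the precision is low.

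Probe sets were named through the platform's gene table, and the 34958 with exactly 1 symbol were tested (932 had several, 9211 had none). limma 3.58.1 (R 4.3.3) fitted a mean per group with 4 residual degrees of freedom, eBayes moderated the variances, and Benjamini-Hochberg adjustment ran over all 34958. As 70.2% of them were flat, the prior was worth only 0.116 degrees of freedom. A fit of the 10405 measured probe sets, with a prior of 1.97 degrees of freedom, is given beside it. The steps were also run on simulated data with independent noise, equal spread in all groups and changes placed only in double KO. The real groups had unequal spreads, and no result was judged by that run. As a check of pairing, same-numbered replicates were compared by their deviations from the group means (r from -0.173 to 0.237), and the arrays were left unpaired.

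Named genes were the members, the 5 genes most like and the 3 most opposite to each by Pearson's r over 8 arrays, and list members that passed the whole-table test. Neighbouring genes, Tfcp2l1 and the Y-linked genes were named after their values were seen. The members and lists were chosen with earlier results of these data known. Sequences are from RefSeq. Alternatives were measured probe sets alone, quantile normalization, median centring, a filter on low means, array weights, robust eBayes with a trend, only the groups compared, a replicate block, 1 probe set per gene or the mean of its probe sets, and omission of each array. Leaving out the same-numbered arrays of both Jmjd1a-KO and double KO was added after the data were seen.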

Additional observations from a re-analysis of the deposited data

Results flagged for a closer look

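Jmjd1c was marked for a closer look because the change that went with Jmjd1a loss differed in sign by Jmjd1b genotype. It was 0.39 in Jmjd1a-KO against WT cells and -0.30 in double KO against Jmjd1b-KO cells on the log2 scale, and the interaction was -0.69 ± 0.18 (limma adjusted p = 0.159 over the whole table and 0.0294 over measured probe sets alone). All 4 arrays of each contrast followed these directions without overlap, as did many other probe sets: 34% of the measured ones were higher without overlap in Jmjd1a-KO than in WT, 82.8% did not overlap between double KO and Jmjd1b-KO, and 6.71% had this same crossing.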

How the results depend on the processing

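Of 321 recomputed values (18 results under 18 alternatives, 1 of which could not be applied to the interactions), 297 kept their direction and their side of the threshold, and the 3 falls of Kdm3a were called in all 18. The mean of a gene's probe sets, which averages in flat ones by construction, gave Kdm3b -1.43 in Jmjd1b-KO against WT, -1.29 in double KO against WT and -1.26 against Jmjd1a-KO, and gave Jmjd1c -0.24 in double KO against Jmjd1a-KO. The falls of Kdm3b kept their sign and lost their call in these fits: Jmjd1b-KO against WT with a replicate block (-2.85, adjusted p = 0.0591), and double KO against WT (-2.57, 0.105) and against Jmjd1a-KO (-2.52, 0.207) when only the groups compared were fitted, which leaves fewer arrays. Against Jmjd1a-KO the replicate block also gave -2.52 (0.0602), and crossing the numbers of double KO in that block, added after the data were seen because double KO and Jmjd1a-KO deviations correlated at -0.173, gave -2.52 (0.0511). The block changed no other call. Kdm3a in Jmjd1b-KO against WT was -0.046 after quantile normalization. For Jmjd1c, double KO against Jmjd1a-KO was called with measured probe sets only (-0.73, 0.00820), with arrays centred on their median (-0.74, 0.0484) and with a span of at least 0.1 (-0.73, 0.00648). Its interaction was called with measured probe sets only (-0.69, 0.0294) and with that span (-0.69, 0.0260), and double KO against WT with that span (-0.34, 0.0473). The span of at least 0.1 was added after the data were seen.

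Leaving out 1 array, or the same-numbered arrays of both Jmjd1a-KO and double KO, gave these ranges. For Jmjd1a-KO against WT, Kdm3b was -0.13 to 0.013 and Jmjd1c 0.28 to 0.50. For Jmjd1b-KO against WT, Kdm3a was -0.020 to 0.082, Kdm3b -2.88 to -2.83 and Jmjd1c -0.16 to 0.068. For double KO against WT, Kdm3b was -2.87 to -2.27 and Jmjd1c -0.47 to -0.22. For double KO against Jmjd1a-KO, Kdm3a was -0.48 to -0.10, Kdm3b -2.89 to -2.14 and Jmjd1c -0.91 to -0.56. For double KO against Jmjd1b-KO, Kdm3b was -0.024 to 0.58 and Jmjd1c -0.43 to -0.17. The interactions were -0.52 to -0.13 for Kdm3a, -0.037 to 0.71 for Kdm3b and -0.86 to -0.51 for Jmjd1c. The cause of these shifts was not tested.

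The number of probe sets past the threshold moved by more than 1.5 times: it was 645 for Jmjd1a-KO against WT (155 to 1918 over the alternatives that keep all arrays), 691 for Jmjd1b-KO against WT (201 to 3920), 3291 for double KO against WT (1681 to 4956), 1169 for double KO against Jmjd1a-KO (510 to 3043), 3752 for double KO against Jmjd1b-KO (2039 to 5327) and 1085 for the interaction (501 to 2686). Without 1 array these counts were, in the same order, 697 to 1719, 785 to 1246, 1266 to 3521, 833 to 1713, 1308 to 3927 and 1061 to 2035. The 2 arrays of each group limit the precision, and signal over background was not analysed here.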
